A study of Mus musculus with 9 samples.

Results

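The immunoglobulin variable (V) genes were taken as the rows of the count file annotated with the biotype IG_V_gene that reached a CPM (the gene's count per 1000000 counts of the library) of at least 1 in at least 1 of the 9 libraries. Of 218 rows with this biotype, among 56748 genes in all, 186 qualified: 90 of 113 heavy chain genes on chromosome 12, 94 of 102 kappa genes on chromosome 6 and 2 of 3 lambda genes on chromosome 16. The level itself chose the members. *Igkv3-3* (1.22), *Ighv3-5* (1.15) and *Ighv5-12-4* (1.15) were the members just inside the limit by their highest CPM, and *Ighv8-6* (0.962), *Ighv2-6-8* (0.897) and *Ighv3-3* (0.897) were just outside. The other lambda gene, *Iglv3*, was among the 32 rows left out, of which 3 had no count in any library.

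An antibody is built from paired heavy and light chains, and a light chain is either kappa or lambda. Each developing B cell joins 1 V segment per chain to the shorter D and J segments (J only in light chains) by V(D)J recombination, and all its descendants inherit that choice. A mixed B cell population therefore uses many V genes, whereas the progeny of a single cell uses 1 heavy and usually 1 light V gene, and plasma cells transcribe theirs at a very high rate. Hematopoietic stem cells (HSCs) carry these loci in germline form.

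RNA-seq was performed on HSCs sorted from the bone marrow of female C57BL/6 mice, with the immunophenotype Lin−Sca-1+c-Kit+CD150+CD48−, in 3 groups of 3 libraries. The yHSCs came from young mice of 6 to 10 weeks. The Selp low paHSCs and Selp high paHSCs were both sorted from pre-aged mice of 14 to 16 months and were separated by surface P-selectin. The antibodies recorded included ones against CD4, CD8, the B cell form of CD45 (B220), TER-119, Gr-1 and Mac-1. Which of them made up the lineage gate was not stated. The libraries held 24866975 to 35375310 counts, so that 3 counts, the limit a count of 0 allows, equal 0.0848 to 0.121 CPM. A summed panel of 12 HSC genes reached 1753 to 3488 CPM in yHSCs, 892 to 2102 in Selp low paHSCs and 3182 to 4754 in Selp high paHSCs.

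The germline ends of the leading V genes are shown because this stretch, around the conserved cysteine codon (in capitals), is where V joins D or J and where the encoded antigen-binding loop begins. Each is the last 60 bases of the longest GENCODE M21 (GRCm38) transcript, 5′ to 3′ on the coding strand. They are reference sequences, not read from these libraries. For the heavy chain they are the most counted members of the 9 libraries:
Ighv7-3: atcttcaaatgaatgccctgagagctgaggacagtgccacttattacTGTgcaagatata
Ighv1-77: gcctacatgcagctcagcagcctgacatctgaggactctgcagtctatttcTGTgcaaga
Ighv7-1: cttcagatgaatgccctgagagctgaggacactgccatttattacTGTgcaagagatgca
Ighv1-26: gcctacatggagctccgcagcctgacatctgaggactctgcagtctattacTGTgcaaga
Ighv10-3: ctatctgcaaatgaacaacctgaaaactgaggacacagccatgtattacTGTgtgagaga
Ighv1-39: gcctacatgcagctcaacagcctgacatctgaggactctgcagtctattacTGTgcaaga
Ighv11-2: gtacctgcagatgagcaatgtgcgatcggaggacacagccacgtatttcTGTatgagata
Ighv4-1: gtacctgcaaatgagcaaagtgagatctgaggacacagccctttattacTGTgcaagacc
For kappa they are the most counted members of the 9 libraries, and for lambda both members:
Igkv4-70: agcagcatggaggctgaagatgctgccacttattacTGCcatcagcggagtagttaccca
Igkv14-111: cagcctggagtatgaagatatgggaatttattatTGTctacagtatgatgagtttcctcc
Igkv9-120: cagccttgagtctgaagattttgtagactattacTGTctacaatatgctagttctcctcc
Igkv12-89: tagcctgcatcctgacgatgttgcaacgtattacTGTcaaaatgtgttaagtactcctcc
Igkv8-27: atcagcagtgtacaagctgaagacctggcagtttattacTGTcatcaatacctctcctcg
Igkv5-48: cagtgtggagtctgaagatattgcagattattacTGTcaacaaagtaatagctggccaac
Igkv14-126: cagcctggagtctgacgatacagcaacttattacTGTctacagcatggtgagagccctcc
Igkv6-15: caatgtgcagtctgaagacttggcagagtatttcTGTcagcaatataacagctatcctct
Iglv1: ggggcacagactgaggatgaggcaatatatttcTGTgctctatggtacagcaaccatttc
Iglv2: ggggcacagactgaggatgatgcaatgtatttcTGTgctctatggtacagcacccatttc

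The heavy ends leave only 6 to 12 bases after the cysteine codon and the kappa ends 18 to 23, the rest of the loop being supplied by the other segments. All 186 members matched a reference transcript by gene identifier, and in 182 the last 60 bases held the codon series for tyrosine, tyrosine or phenylalanine, and cysteine. Over the last 280 bases the 8 heavy leaders shared 59.6% (*Ighv1-26* and *Ighv10-3*) to 92.5% (*Ighv1-26* and *Ighv1-39*) of their sequence, and *Iglv1* and *Iglv2* shared 97.5%. The closest other V gene of a member was 95.4% identical in the median, and 18 members had a neighbor with at least 98% identity. Reads of such neighbors could be divided between genes, so single values of close relatives are uncertain.

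For 3 members that together dominated the most V-rich library, the last 280 bases are given in full, again with the cysteine codon in capitals.
Igkv8-27: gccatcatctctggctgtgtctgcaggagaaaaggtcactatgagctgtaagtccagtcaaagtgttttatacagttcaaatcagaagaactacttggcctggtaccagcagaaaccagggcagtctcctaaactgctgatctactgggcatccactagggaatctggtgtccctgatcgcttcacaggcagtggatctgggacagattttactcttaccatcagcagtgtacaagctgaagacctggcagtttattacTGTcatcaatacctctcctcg
Ighv10-3: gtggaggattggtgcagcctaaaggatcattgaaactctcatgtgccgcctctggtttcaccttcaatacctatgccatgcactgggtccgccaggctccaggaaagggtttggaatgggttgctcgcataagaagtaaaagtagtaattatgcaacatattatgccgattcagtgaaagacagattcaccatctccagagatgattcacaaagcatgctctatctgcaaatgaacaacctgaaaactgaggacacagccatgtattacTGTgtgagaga
Iglv1: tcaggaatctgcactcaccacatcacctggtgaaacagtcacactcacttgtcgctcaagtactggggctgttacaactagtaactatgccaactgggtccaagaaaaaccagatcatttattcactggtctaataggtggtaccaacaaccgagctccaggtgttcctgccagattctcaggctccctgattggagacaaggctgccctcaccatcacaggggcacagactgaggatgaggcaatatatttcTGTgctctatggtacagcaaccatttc
In the file's coordinates (mm39 in the submitters' processing notes) *Igkv8-27* lies at chr6:70148793-70149254 on the minus strand, *Ighv10-3* at chr12:114487061-114487525 on the minus strand and *Iglv1* at chr16:18903767-18904250 on the minus strand. The nearest relative of *Igkv8-27* was *Igkv8-30* at 88.6% identity, whereas that of *Ighv10-3* was *Ighv10-1* at 96.4%.

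V transcripts were present in every library, at levels that differed widely between libraries, most of all within Selp low paHSCs. The summed CPM of the 186 members was 327, 115 and 405 in yHSCs 1 to 3. It was 9887, 126300 and 325 in Selp low paHSCs 1 to 3, and 1209.7, 9726 and 3254 in Selp high paHSCs 1 to 3. The Selp high libraries were all above the yHSC libraries, whereas Selp low paHSCs 3 lay within the yHSC range and Selp low paHSCs 2 stood above every other library. In that library the members made up 12.6% of all counts, and 3 of its 10 most counted genes were V genes. In the other 8 libraries they took at most 0.989%. The TMM scaling factor of Selp low paHSCs 2, from a fit of all libraries, was 0.545, against 0.785 to 1.22 in the others. The group means were 282 ± 150 for yHSCs, 45504 ± 70134 for Selp low paHSCs and 4730.0 ± 4446 CPM for Selp high paHSCs (SD, n = 3), and the SD of Selp low paHSCs exceeded their mean. As the members were chosen by their CPM, these sums are a description without a test.

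**Figure D1:**
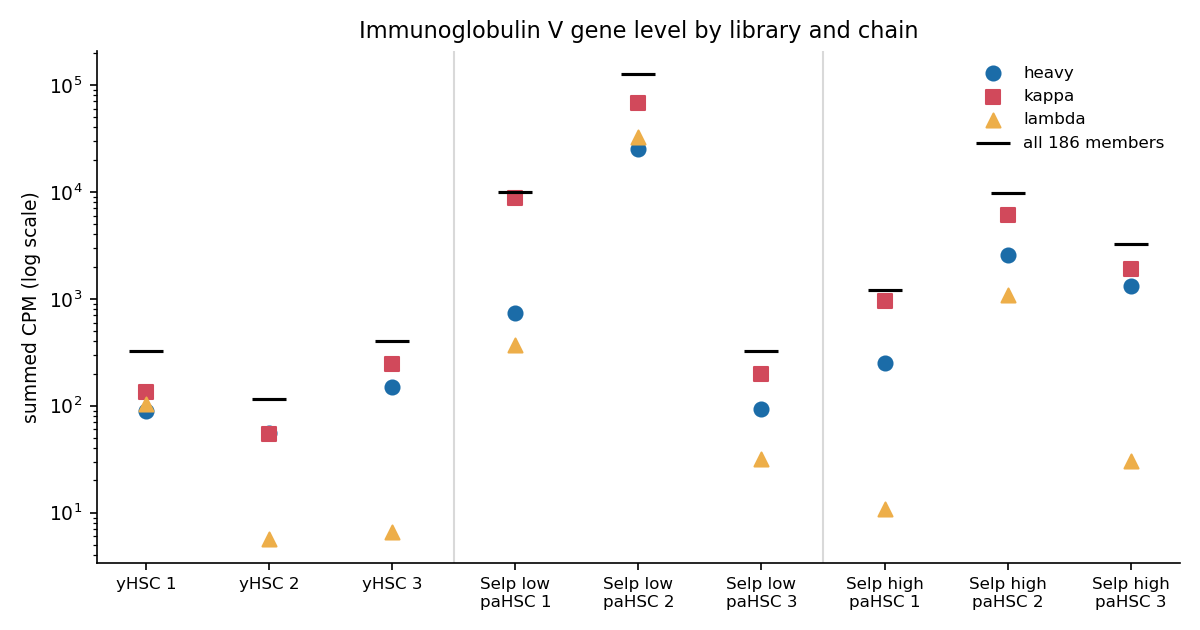
Summed CPM of the heavy, kappa and lambda V members (points) and of all 186 members (bars) in each of the 9 libraries, on a log scale. Selp low paHSCs 2 reach 126300 CPM while Selp low paHSCs 3 sit at 325, inside the range of the yHSC libraries.

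Selp low paHSCs 2 also decided much of the membership. This library held the highest value of 146 of the 186 members, and Selp low paHSCs 1 held that of another 18. Without Selp low paHSCs 2 the rule gave 172 members, and without both libraries 121 (56 heavy, 63 kappa and 2 lambda). Members at 1 CPM or more numbered 30, 39 and 28 in yHSCs, 169, 182 and 20 in Selp low paHSCs, and 45, 94 and 31 in Selp high paHSCs. Only *Igkv19-93* and *Iglv1* reached 1 CPM in all 9 libraries, and 16 members did so in a single library.

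Transcripts of antibody-secreting and mature B cells moved with these sums only in part. *Jchain*, which encodes the joining chain of secreted polymeric antibodies, stood at 79.2, 2.30 and 52.8 CPM in yHSCs, 268, 53521 and 21.5 in Selp low paHSCs, and 169, 3799 and 498 in Selp high paHSCs. *Cd79a*, which encodes a signaling chain of the B cell receptor, had 23.0, 104 and 64.5 CPM in yHSCs, 2712, 2311 and 6.85 in Selp low paHSCs, and 58.8, 212 and 48.8 in Selp high paHSCs. Both were lowest in Selp low paHSCs 3 among the pre-aged libraries, but *Jchain* was highest in Selp low paHSCs 2 and *Cd79a* in Selp low paHSCs 1. Of 15 plasma cell markers, 11 to 15 were at 1 CPM or more in each library, and their sum was 733 to 996 CPM in yHSCs, 618 to 56632 in Selp low paHSCs and 1121 to 5075 in Selp high paHSCs. *Jchain* alone gave 53521 of the 56632 CPM in Selp low paHSCs 2. The sum of 12 mature B cell markers was 145 to 472, 46.9 to 8111 and 207 to 730 CPM in the same order, and *Pax5*, the B lineage transcription factor, had no count in Selp high paHSCs 3. In yHSCs 1 to 3 the mature B cell sum was 145, 472 and 300 CPM, highest in the library with the lowest V sum. Selp high paHSCs 3 had 207 CPM, inside the yHSC range, at a V sum of 3254 CPM. The part of B lineage cells in the V signal was not tested, and in bulk libraries more such cells and more RNA per cell cannot be told apart.

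**Figure D2:**
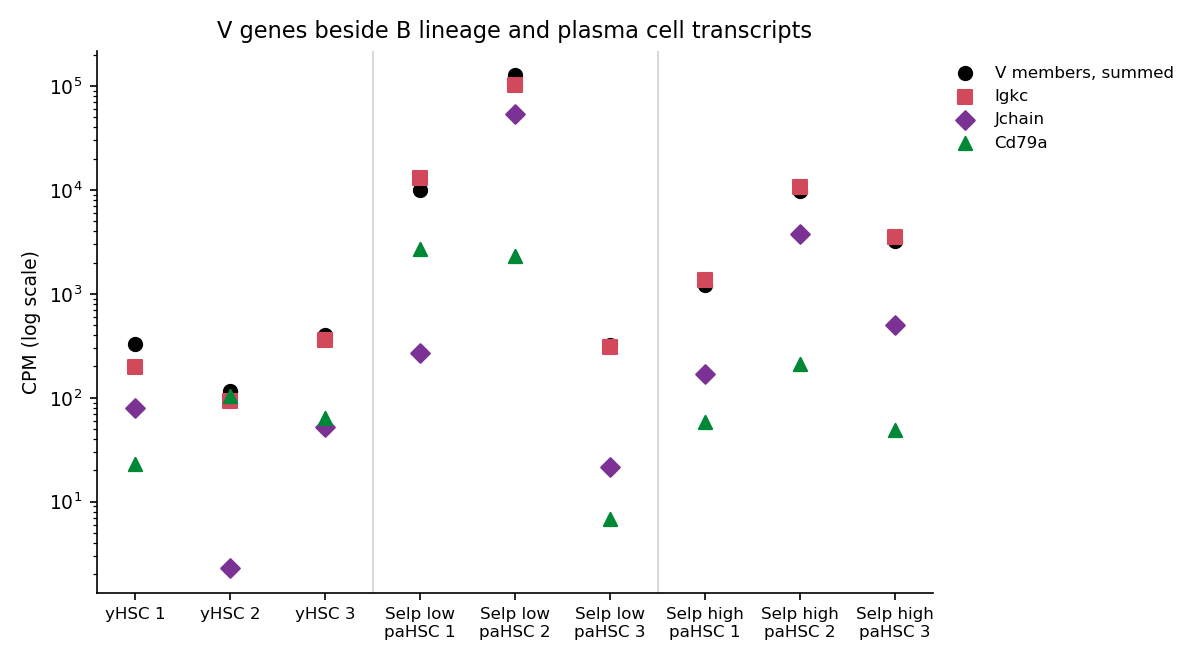
CPM (log scale) of the summed V members, *Igkc*, *Jchain* and *Cd79a* in each library. The V sum follows *Igkc* in all 9 libraries, and *Jchain* ranges from 2.30 to 53521 CPM.

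The V counts kept a narrow ratio to the constant genes, whose segments are spliced to the same transcripts. Kappa V counts were 0.535 to 0.702 of the *Igkc* count and heavy V counts 0.123 to 0.199 of the summed heavy constant counts across the 9 libraries, without adjustment for gene length. The lambda ratio was wider, 0.152 to 0.977. Annotated V pseudogenes stayed low, with 2.63 to 36.1 CPM in sum, and the V genes of the T cell receptor summed to 7.21 to 94.1 CPM. The V sum was therefore 18.0 to 3495 times the pseudogene sum. Counts per gene do not separate unjoined from joined V segments.

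The chains were used in different proportions in each library. Heavy genes took 27.3%, 47.9% and 37.1% of V counts in yHSCs, 7.44%, 20.04% and 28.6% in Selp low paHSCs, and 20.5%, 26.5% and 40.6% in Selp high paHSCs. Kappa genes took 40.7%, 47.2% and 61.3% in yHSCs, 88.8%, 54.0% and 61.5% in Selp low paHSCs, and 78.6%, 62.4% and 58.4% in Selp high paHSCs. Lambda genes took 31.9%, 4.88% and 1.62% in yHSCs, 3.77%, 25.97% and 9.86% in Selp low paHSCs, and 0.904%, 11.2% and 0.934% in Selp high paHSCs. The ranges of the groups overlapped for each chain, with mean heavy shares of 37.4 ± 10.3% for yHSCs, 18.7 ± 10.7% for Selp low paHSCs and 29.2 ± 10.3% for Selp high paHSCs (SD, n = 3). The largest 95% Wilson interval of a share was ± 1.54 points, far smaller than the spread between libraries, although it covers counting error only. Selp low paHSCs 1 had the lowest heavy share and 12.4 light chain counts per heavy count, against 1.09 to 3.99 in the other 8 libraries.

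**Figure D3:**
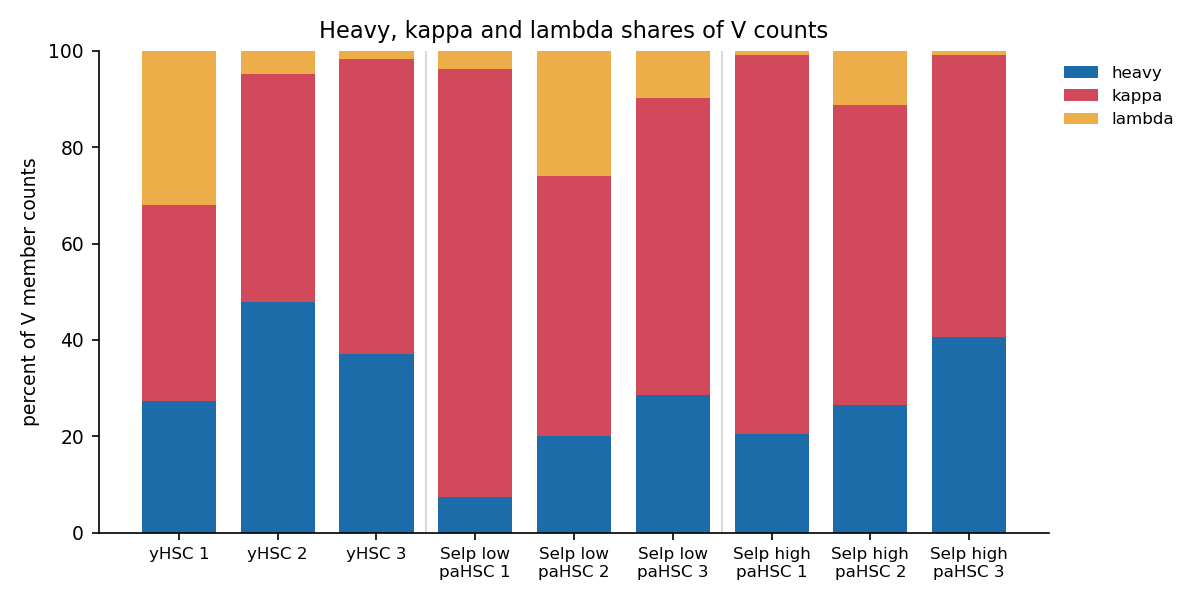
Percent of V member counts from heavy, kappa and lambda genes in each library, stacked to 100%. Kappa is the largest part in 8 of the 9 libraries, lambda takes 31.9% in yHSCs 1 and 25.97% in Selp low paHSCs 2, and heavy falls to 7.44% in Selp low paHSCs 1.

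Few heavy V genes carried most heavy counts in 7 of the 9 libraries. The effective number of genes (the inverse Simpson index, equal to the number of genes if all were used evenly) was 7.40, 30.9 and 3.82 in yHSCs, 44.3, 2.63 and 4.37 in Selp low paHSCs, and 1.77, 7.92 and 2.93 in Selp high paHSCs. It was lowest in Selp high paHSCs 1 and highest in Selp low paHSCs 1, and the 3 groups overlapped. In yHSCs the most counted heavy members were *Ighv7-3* (27.5% of heavy counts), *Ighv1-77* (8.33%) and *Ighv7-1* (43.4%). In Selp low paHSCs they were *Ighv1-26* (6.26%), *Ighv10-3* (60.8%) and *Ighv1-39* (34.8%). In Selp high paHSCs they were *Ighv11-2* (74.1%), *Ighv10-3* (28.9%) and *Ighv4-1* (52.0%). *Ighv10-3* was thus the only heavy gene to lead in more than 1 library.

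The second heavy genes were 8 different ones in the 9 libraries, *Ighv1-9* holding that place in both Selp low paHSCs 1 and 2. They were *Ighv7-1* (15.8%), *Ighv1-82* (7.25%) and *Ighv12-3* (26.3%) in yHSCs and *Ighv1-9* (3.99%), *Ighv1-9* (7.07%) and *Ighv6-3* (30.7%) in Selp low paHSCs. In Selp high paHSCs they were *Ighv1-55* (12.3%), *Ighv9-2* (10.6%) and *Ighv1-69* (20.9%). The leading 5 heavy genes made up 97.997% of heavy counts in Selp high paHSCs 3 but 21.6% in Selp low paHSCs 1 and 29.9% in yHSCs 2. Of the 90 heavy members, 39 had any count in Selp high paHSCs 3 and all 90 had a count in Selp low paHSCs 2.

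Kappa genes were similarly concentrated, and not always in the libraries where heavy genes were. The effective number was 6.03, 30.4 and 2.32 in yHSCs, 2.45, 3.01 and 6.44 in Selp low paHSCs, and 2.76, 8.72 and 3.01 in Selp high paHSCs. The most counted kappa members were *Igkv4-70* (27.7% of kappa counts), *Igkv14-111* (6.78%) and *Igkv9-120* (61.5%) in yHSCs. They were *Igkv12-89* (63.6%), *Igkv8-27* (55.6%) and *Igkv5-48* (28.3%) in Selp low paHSCs, and *Igkv14-126* (42.8%), *Igkv8-27* (26.1%) and *Igkv6-15* (54.0%) in Selp high paHSCs. Selp low paHSCs 1 therefore paired the most even heavy use of all libraries with 1 dominant kappa gene. Gene models of members span 338 to 480 bases, and per base of model the leader stayed the same for heavy in 9 of 9 libraries and for kappa in 8 of 9. In Selp high paHSCs 1, *Igkv12-89* (41.9% of kappa counts) then came before *Igkv14-126*.

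The kappa genes in second place were *Igkv16-104* (27.6%), *Igkv19-93* (6.67%) and *Igkv15-103* (22.8%) in yHSCs. They were *Igkv6-15* (3.20%), *Igkv19-93* (13.0%) and *Igkv19-93* (16.1%) in Selp low paHSCs, and *Igkv12-89*, *Igkv3-4* (15.2%) and *Igkv1-135* (14.7%) in Selp high paHSCs. The kappa locus holds V genes in both orientations, which rearrange by deletion or by inversion, and 60 of the 94 members lie on the minus strand and 34 on the plus strand. Minus-strand genes took 7.96% of kappa counts in yHSCs 3, where the plus-strand *Igkv9-120* led, and up to 90.4% in Selp low paHSCs 3.

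**Figure D4:**
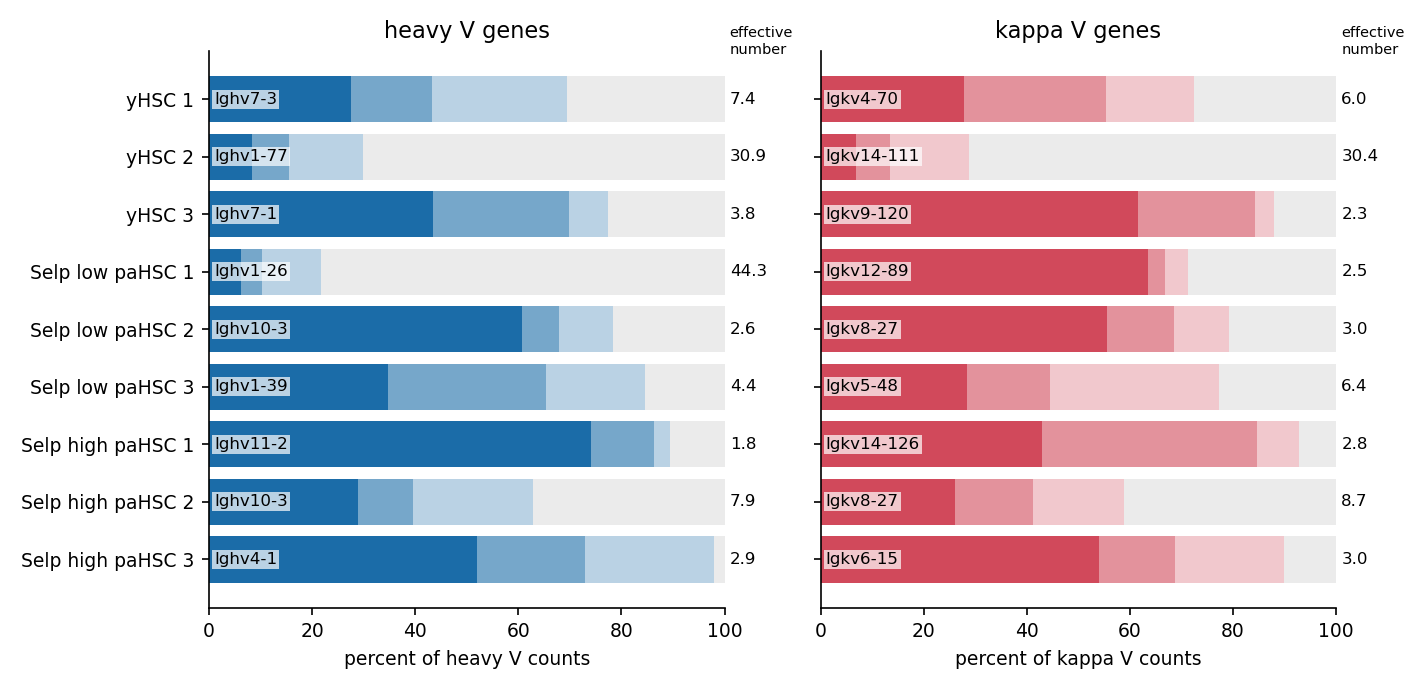
Percent of heavy (left) and kappa (right) V counts per library taken by the most counted gene (darkest, named), the second (medium), the next 3 (light) and all others (gray), with the effective number of genes at the right of each bar. Selp low paHSCs 1 and yHSCs 2 spread their heavy counts over many genes, and *Ighv11-2* alone takes 74.1% in Selp high paHSCs 1.

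Mice have very few lambda V genes, and *Iglv1* was the more counted member everywhere. Its CPM was 103, 3.91 and 5.40 in yHSCs, 286, 31728 and 31.1 in Selp low paHSCs, and 10.2, 1084 and 28.9 in Selp high paHSCs. *Iglv2* had 1.13, 1.70 and 1.15 CPM in yHSCs, 87.0, 1078 and 0.912 in Selp low paHSCs, and 0.707, 1.94 and 1.51 in Selp high paHSCs. *Iglv1* was above 100 CPM in Selp low paHSCs 1 and 2, Selp high paHSCs 2 and yHSCs 1, and *Iglv2* was above 1.94 CPM in Selp low paHSCs 1 and 2. The share of *Iglv1* in lambda counts ran from 69.7% in yHSCs 2 to 99.8% in Selp high paHSCs 2, although the near-identity of both genes makes this split uncertain.

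The paHSC libraries with replicate number 2 had leading genes in common. *Igkv8-27* had 8.97, 2.41 and 0.266 CPM in yHSCs, 67.0, 37922 and 0 in Selp low paHSCs, and 8.28, 1580.0 and 0 in Selp high paHSCs. *Ighv10-3* had 3.02, 0.596 and 1.09 CPM in yHSCs, 12.9, 15378 and 0 in Selp low paHSCs, and 2.49, 745 and 0.0602 in Selp high paHSCs. Both were high in the replicates 2 of the pre-aged fractions and at or below 67.0 CPM in the other 7 libraries. The level in Selp low paHSCs 2 was 24.0 times that in Selp high paHSCs 2 for *Igkv8-27*, 20.6 times for *Ighv10-3*, 29.3 times for *Iglv1* and 25.0 times for *Igkv19-93*. Other members departed from this ratio, among them *Igkv6-15* at 1.77 times, *Igkv3-4* at 4.2005 times, *Igkv12-44* at 305 times and *Iglv2* at 557 times. Of the 10 most counted members of each library, both shared 5 (*Ighv10-3*, *Igkv19-93*, *Igkv3-4*, *Igkv8-27* and *Iglv1*). The pre-aged fractions shared 4 with replicate number 1 and 3 with number 3, and over all pairs of libraries with different numbers the overlap was 1 to 5 with a median of 3.

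*Igkv12-89* followed a different set of libraries. Its CPM was 1.85, 0.482 and 0.236 in yHSCs, 5580 in Selp low paHSCs 1, 46.5 in Selp low paHSCs 2 and 29.9 in Selp low paHSCs 3, and 398, 2.61 and 147 in Selp high paHSCs. It was highest in the replicates 1 of both pre-aged fractions, and all yHSC libraries were below all pre-aged libraries. Its closest relative, *Igkv12-46*, was 85.7% identical over the last 280 bases.

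*Ighv11-2* and *Igkv14-126* stood out in Selp high paHSCs. Encoded together, these V genes are known from the phosphatidylcholine-binding receptors of B-1a cells, a self-renewing B cell subset of the body cavities. Bulk counts cannot show whether they come from the same cell. *Ighv11-2* had 0.161, 2.38 and 3.25 CPM in yHSCs, 13.2, 59.0 and 0 in Selp low paHSCs, and 184, 119 and 78.0 in Selp high paHSCs. *Igkv14-126* had 1.13, 2.92 and 4.64 CPM in yHSCs, 42.0, 166 and 0 in Selp low paHSCs, and 407, 385 and 104 in Selp high paHSCs. For *Ighv11-2* the Selp high libraries were above all others. For *Igkv14-126* they were above all yHSC libraries, but Selp low paHSCs 2 exceeded Selp high paHSCs 3. *Ighv11-1*, 98.6% identical to *Ighv11-2*, stayed at or below 1.496 CPM in all 9 libraries.

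**Figure D5:**
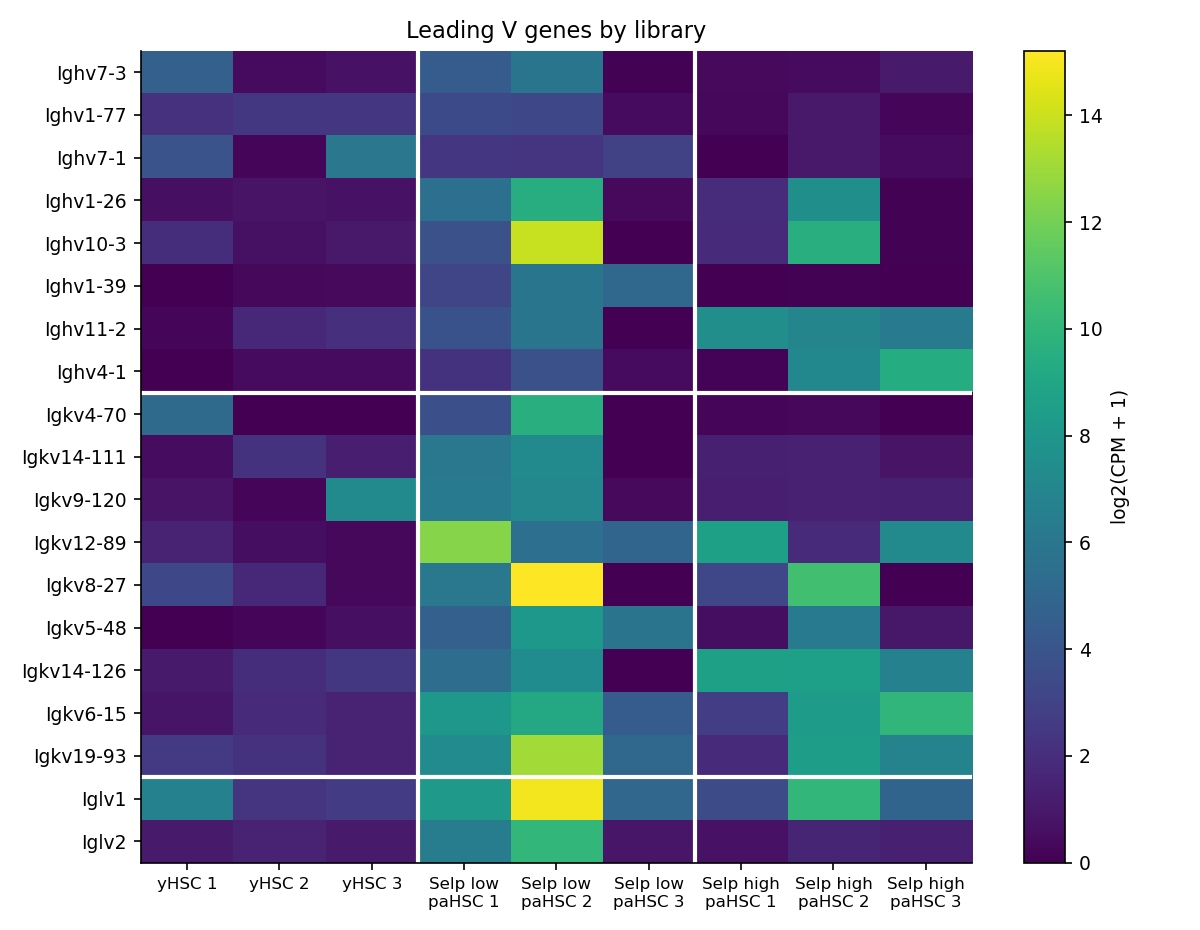
Color shows log2(CPM + 1) of the leading heavy (top), kappa (middle) and lambda (bottom) V genes and of *Igkv19-93* in the 9 libraries. *Igkv8-27*, *Ighv10-3* and *Iglv1* peak in Selp low paHSCs 2 with a second maximum in Selp high paHSCs 2, and *Ighv11-2* and *Igkv14-126* are high in all 3 Selp high libraries.

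Other leading genes peaked in different libraries. *Ighv4-1* reached 687 CPM in Selp high paHSCs 3 and 136 in Selp high paHSCs 2, with at most 12.7 CPM elsewhere. *Igkv6-15* reached 1026 CPM in Selp high paHSCs 3, 324.5 in Selp high paHSCs 2, 575 in Selp low paHSCs 2 and 281 in Selp low paHSCs 1. *Igkv9-120* had 153 CPM in yHSCs 3, a value it approached only in Selp low paHSCs 2 (129) and 1 (76.6). *Ighv7-1* had 65.1 CPM in yHSCs 3 and 14.1 in yHSCs 1 but at most 6.56 in the pre-aged libraries. A few members were thus highest in young libraries, 4 of the 186 in yHSCs 3 and 1 in yHSCs 2.

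By family, IGHV1 (48 members) was the broadest and took 18.6% to 58.6% of heavy counts in every library, led by *Ighv1-77* in yHSCs 2, *Ighv1-26* in Selp low paHSCs 1 and *Ighv1-39* in Selp low paHSCs 3. Small families took large shares in single libraries. IGHV11 (2 members) reached 74.5% in Selp high paHSCs 1, IGHV10 (2 members) 60.9% in Selp low paHSCs 2, IGHV4 (1 member) 52.0% in Selp high paHSCs 3 and IGHV7 (2 members) 43.9% in yHSCs 3. In each of these a single gene gave at least 99.0% of the family's counts. Among kappa families, IGKV12 (6 members) reached 66.2% in Selp low paHSCs 1, IGKV9 (4 members) 62.1% in yHSCs 3, IGKV6 (9 members) 57.3% in Selp high paHSCs 3 and IGKV8 (9 members) 57.3% in Selp low paHSCs 2. The largest kappa family, IGKV4 (26 members), never exceeded 31.4%.

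The pattern of *Ighv10-3* over the 9 libraries, on the log2(CPM + 1) scale, was most like that of *Igkv8-27* (Pearson r = 0.987) and *Ighv1-78* (r = 0.979). That of *Igkv8-27* was most like those of *Ighv10-3* and *Igkv3-4* (r = 0.984). These values describe 9 libraries that share depth and V content, and Selp low paHSCs 2 is the maximum of all 4 genes.

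The heavy constant genes showed which antibody classes the V counts accompanied. *Ighm*, which encodes the IgM heavy chain, took 25.4% to 96.6% of heavy constant counts and was highest in Selp high paHSCs 1, the library led by *Ighv11-2*. In Selp high paHSCs 3, led by *Ighv4-1*, *Ighg2c* took 34.1%, *Igha* 21.2% and *Ighg1* 19.2%. *Igha*, the IgA gene, took 32.9% in Selp high paHSCs 2 and 26.3% in Selp low paHSCs 2. *Ighd*, a gene of naive B cells, took 21.04% in Selp low paHSCs 1, the library with the most even heavy V use. Constant and V segments were counted as separate genes and cannot be joined to single transcripts here.

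Genes of the recombination machinery did not follow the V sums. *Rag1*, a subunit of the recombinase, was between 0 and 6.80 CPM, with its highest value in yHSCs 1, and *Dntt*, which adds bases at the joints, had 28.4, 94.2 and 90.4 CPM in yHSCs and at most 17.2 CPM in the pre-aged libraries. Of 18 tested genes for V(D)J joining and hypermutation, 0 were called in each of the 3 comparisons by edgeR's quasi-likelihood test. These counts cannot describe the 18 genes, because edgeR called no gene of any kind in both comparisons with Selp low paHSCs. In Selp high paHSCs over yHSCs it called only 33 of 20017 genes. The 18 genes had a median log2 fold change of 0.01 for Selp high over Selp low paHSCs, against -0.11 for all genes. Against yHSCs it was -0.16 in Selp high paHSCs (all genes -0.03) and -0.02 in Selp low paHSCs (all genes 0.08). DESeq2 called 1 of them lower in Selp high paHSCs than in yHSCs, against 224 of 41339 genes called lower. It called 1 lower in Selp low paHSCs than in yHSCs, against 162 of 43683.

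Differences between the groups were tested with edgeR's quasi-likelihood test across all genes, each pair of groups in a fit of its own, and a gene was called when its Benjamini-Hochberg adjusted p did not exceed 0.05 and its log2 fold change was 1 or more in size. A filter on low counts removed 37 to 86 members depending on the pair, and members that pass it only through a group in which they are high had to differ, so the counts below are read beside those of all genes. With 3 libraries a group, an exact permutation test of a single value cannot go below p = 0.1. The 3 comparisons share libraries and are not independent.

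In Selp high over Selp low paHSCs, most tested members were lower in Selp high paHSCs, but edgeR called none. Of 149 members tested, 141 had a negative and 8 a positive log2 fold change, with a median of -5.35 against -0.11 over all 20370 genes. At an unadjusted p under 0.05 there were 76 members, all lower, against 12.5% of all genes in either direction. Without Selp low paHSCs 2 the median was -2.76, 39 of 149 members were positive and 22 were at an unadjusted p under 0.05, against 5.52% of all genes. That number was 133 of 183 members tested without Selp low paHSCs 3 (13.3% of all genes) and 49 of 183 without Selp high paHSCs 1 (10.4%). No gene of any kind was called (percent called 0), and the smallest adjusted p of a member was 0.338. Limma's voom with quality weights also called 0 members, and DESeq2 called 34, all lower, against 0.928% of genes called lower. Without Selp low paHSCs 3 the edgeR count was 6, against 0.218% of all genes called lower, and the DESeq2 count 99, against 1.97%. DESeq2 called 8 members without Selp low paHSCs 2 (0.0814% of genes lower), 18 without Selp high paHSCs 1 (0.93% of genes in either direction) and 63 without Selp high paHSCs 2 (5.14% lower).

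Equal replicate numbers were treated as pairs of the pre-aged fractions, a pairing inferred from these same counts and not given by the labels. With the replicate number as a block edgeR called 6 members lower in Selp high paHSCs, against 0.0393% of all genes. They were *Ighv1-39*, *Ighv9-3*, *Ighv9-4*, *Igkv4-53*, *Igkv4-58* and *Igkv12-41*, named after their values were seen, with blocked log2 fold changes of -4.83 (*Ighv9-3*) to -11.35 (*Ighv1-39*) and adjusted p of 0.0212 to 0.041 (edgeR). *Ighv1-39* had 8.20, 59.2 and 32.3 CPM in Selp low paHSCs and 0, 0.0587 and 0 in Selp high paHSCs, without overlap. It could pass the low-count filter only through Selp low paHSCs and so had to differ, and its call is no separate support. *Ighv9-3* and *Ighv9-4* had no count in Selp high paHSCs 3, so they too needed Selp low libraries to pass. None of the 6 calls is taken as separate support. *Ighv9-3* had 28.3, 265 and 0.0588 CPM in Selp low paHSCs and 1.07, 19.3 and 0 in Selp high paHSCs, lower in Selp high paHSCs within each number although the groups overlapped. DESeq2 with the same block called 88 members, all lower, against 2.72% of all genes.

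The leading genes of the replicates 2 did not pass any of these edgeR fits. The log2 fold change of Selp high over Selp low paHSCs was -5.72 ± 4.35 (SE) for *Igkv8-27* with an adjusted p of 0.625, and -5.50 ± 4.16 for *Ighv10-3* with an adjusted p of 0.624, both from edgeR. *Iglv1* gave -5.96 ± 3.00 with an adjusted p of 0.469, and *Igkv12-89* -3.40 ± 2.15 with an adjusted p of 0.56 (edgeR). The sign of each was set by a single library. Without Selp low paHSCs 2 the values became 3.82, 5.11 and 1.05 for the former 3, and without Selp low paHSCs 1 that of *Igkv12-89* became 1.49.

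In Selp high paHSCs over yHSCs, edgeR called 1 of 100 members tested, *Igkv14-126*, against 0.105% of all genes called higher. It rose by 6.70 ± 0.78 on the log2 scale (SE), with an adjusted p of 0.0324 in edgeR's quasi-likelihood test, and was higher in 3 of 3 Selp high libraries than in any yHSC library. The call was lost when any of the 6 libraries was left out, with adjusted p from 0.0664 to 0.177, and with the replicate block (adjusted p = 0.284) or all 9 libraries in a single fit (0.403). *Ighv11-2* gave 6.06 ± 0.96 with an adjusted p of 0.0924 in edgeR and 1.08e-12 in DESeq2. It was too low in yHSCs 1 to pass the low-count filter through yHSCs alone. It passed only with Selp high libraries, in which it was high, so these values are no separate support. The median member log2 fold change was 1.74 against -0.03 over all 20017 genes, and 78 of 100 members were positive. At an unadjusted p under 0.05 there were 42 members, 34 of them higher, against 7.59% of all genes in either direction. Without Selp high paHSCs 2 the median was 0.10, against -0.10 over all genes, and in DESeq2 it was -0.34 against -0.66. In that edgeR fit 54 of 104 members were positive and 21 were at an unadjusted p under 0.05, against 7.46% of all genes. Without yHSCs 3 the latter number was 23 of 119, against 3.94%. DESeq2 called 11 members higher and 3 lower, against 0.926% and 0.542% of genes, and 25 in all without Selp high paHSCs 1 (1.71% of genes in either direction) and 31 without Selp high paHSCs 3 (1.93%). Limma's voom called 2, both higher, against 0.869% of genes. The edgeR count was 4, all higher, without Selp high paHSCs 1, against 0.131% of genes called higher.

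In Selp low paHSCs over yHSCs, nearly all tested members were higher in Selp low paHSCs, and edgeR again called none. Of 123 members tested 119 were positive, the median log2 fold change was 7.36 against 0.08 over all 20437 genes, and 102 members were at an unadjusted p under 0.05, all higher, against 11.3% of all genes in either direction. Without Selp low paHSCs 2 the median was 4.08 and 49 of 126 members were at an unadjusted p under 0.05, against 5.05% of all genes. That number was 172 of 183 without Selp low paHSCs 3 (13.2% of all genes) and 23 of 123 with the replicate block (7.58%). No gene was called (percent called 0) by edgeR, while DESeq2 called 68 members, all higher, against 0.806% of genes, and limma's voom called 1 against 1.59%. Without Selp low paHSCs 3, which lay near the yHSC libraries, edgeR called 22 and DESeq2 166, all higher, against 0.497% and 2.33% of all genes. DESeq2 called 25 without Selp low paHSCs 2 (0.193% of genes higher) and 37 without yHSCs 2 (0.361%). *Igkv6-15* gave a log2 fold change of 8.30 ± 1.505 with an adjusted p of 0.332 in edgeR and 5.02e-12 in DESeq2, and all 3 Selp low libraries were above all yHSC libraries.

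Marker lists for cell types were tested in the same fits. Of 12 mature B cell genes edgeR called 0 in each comparison, with median log2 fold changes of -3.73 for Selp high over Selp low paHSCs, 0.09 for Selp high paHSCs over yHSCs and 3.97 for Selp low paHSCs over yHSCs. Both comparisons with Selp low paHSCs held no edgeR call for any gene, so the lack of calls there cannot describe a list. DESeq2 called 7 lower, 0 and 9 higher in the same order. Over all genes it called 0.928% lower and 195 of 43523 higher for Selp high over Selp low paHSCs. For Selp high paHSCs over yHSCs it called 0.926% higher and 0.542% lower, and for Selp low paHSCs over yHSCs 0.806% higher. For 15 plasma cell genes edgeR called 0 in each and the medians were -2.47, 1.12 and 2.68, with DESeq2 calling 0, 4 higher and 5 higher. For 22 genes of immunoglobulin folding and secretion edgeR called 0 in each, and the medians were -1.16, 0.76 and 1.71. DESeq2 called 0, 4 higher and 4 higher of these. For 11 B cell progenitor genes edgeR called 0 in each, and the medians were -0.47, -0.46 and 0.02. DESeq2 called 0, 1 lower and 1 lower of these. Among 12 HSC genes the medians were 1.51, 0.71 and -0.92, with edgeR calling 0, 1 higher and 0. DESeq2 called 3 higher, 3 higher, and 1 higher with 1 lower. T cell markers had medians of -3.89, 0.08 and 3.45 (9 genes, 8 tested in the last), with DESeq2 calling 4 lower, 0 and 3 higher. Neutrophil markers had medians of -2.21, -0.81 and 1.56 (8 genes), with DESeq2 calling 0, 1 higher and 0. The neutrophil median had the sign of the V median in both comparisons with Selp low paHSCs and the opposite sign in the other. Neutrophil markers summed to 5347, 291 and 160008 CPM in Selp low paHSCs 1 to 3. The part of these cells in the V differences was not tested.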

How the data were processed

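RNA-seq of 9 libraries was analysed. The authors trimmed reads with fastp, aligned them with HISAT2 (2.2.1) and deposited raw counts per gene from featureCounts (2.0.6). The genome build in the submitters' processing notes is mm39, and the strand setting and the handling of reads mapping to several genes were not given in the sources used here. Libraries were amplified from low RNA input, so intervals cover counting error only. The file held 0 further columns of per-sample values. The authors' chromatin and human data were not used here.

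CPM used column totals without further scaling. Tests ran in R 4.3.3 with edgeR 4.0.16 (TMM factors, filterByExpr, quasi-likelihood with the legacy setting), DESeq2 1.42.0 and limma 3.58.1, after tests on simulated data. DESeq2 and the fit without a filter covered every gene with a count. DESeq2 gave no adjusted p to 50 of 186 members for Selp high over Selp low paHSCs, so these could not be called. The number was 118 of 182 for Selp high paHSCs over yHSCs and 46 of 186 for Selp low paHSCs over yHSCs. Its shares over all genes also count rows without an adjusted p. The SE given with an edgeR log2 fold change is its size divided by the square root of the quasi-likelihood F statistic. Python 3.11.15 drew the figures. The members and gene lists were chosen with earlier results of these data known. Named were the leading members of each library and chain, both lambda members, those called by edgeR, those next to the CPM limit, those at 1 CPM in every library, those leading a family and those most like the top genes. *Igkv12-44*, *Ighv11-1* and the 6 genes called with the replicate block were named after their values were seen.

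The pairing of libraries by replicate number was checked from the correlation of deviations from group means over 16481 genes. Selp low and Selp high paHSCs of the same number gave r = 0.473, 0.486 and 0.476, so these were taken as pairs. The labels do not give such pairs, and in their reply to referees the authors describe the 9 samples as independent.
Replicates came from separately labelled samples, and the sources used here do not say whether mice were pooled for them.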

Additional observations from a re-analysis of the deposited data

How the results depend on the processing

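Counts of called V members depended on the tool, the filter and single libraries. For Selp high over Selp low paHSCs the count of 0 became 34 with DESeq2, 55 of 186 without a filter (193 of 43523 genes) and 6 with the replicate block. It ranged from 0 to 6 as each library was left out. For Selp high paHSCs over yHSCs the count of 1 became 14 with DESeq2, 44 of 182 without a filter (472 of 41339 genes) and 2 with voom quality weights. The count was 0 with the replicate block or with all 9 libraries in a single fit. It ranged from 0 to 4 with a library left out. For Selp low paHSCs over yHSCs the count of 0 became 68 with DESeq2, 132 of 186 without a filter (365 of 43683 genes) and 1 with voom. The count ranged from 0 to 22 with a library left out. The replicate block left it at 0. Chosen after seeing the data, DESeq2 with each library left out called 8 to 99 members for Selp high over Selp low paHSCs, 10 to 31 for Selp high paHSCs over yHSCs and 25 to 166 for Selp low paHSCs over yHSCs. The count of 10 came without yHSCs 2 (386 of 41085 genes called) and without yHSCs 3 (359 of 40092). With the replicate block DESeq2 called 88 (2188 of 43523 genes in either direction), 13 (641 of 41339) and 42 (417 of 43683). The cause of these shifts was not tested. RLE and upper-quartile factors, scaling without immunoglobulin rows and a mean count of at least 10 kept the counts at 0, 1 and 0.

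Numbers shared with yHSCs gave correlations of -0.0796 to 0.0506, so they do not pair those libraries. Log2 fold changes of Selp high over Selp low paHSCs turned positive without Selp low paHSCs 2 for *Igkv8-27* (3.82), *Ighv10-3* (5.11) and *Iglv1* (1.05), and without Selp low paHSCs 1 for *Igkv12-89* (1.49). With a library left out they ranged from -12.59 to 3.82, -12.98 to 5.11, -10.06 to 1.05 and -4.64 to 1.49 in that order. Of 72 group values of level, chain share and effective number under other settings, 1 moved by at least its SD between libraries: without the most counted member of each chain, the effective number of kappa genes in Selp low paHSCs rose from 3.97 to 17.8. Depth limits members near 0.0848 to 0.121 CPM, where counts of 0 to 3 decide the value.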
